A study of Mus musculus with 24 samples.

Results

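A set of 6 genes was followed through the injured hearts: Ccn2 (on the array as Ctgf) and Ccn1 (on the array as Cyr61), which encode secreted matricellular CCN proteins; Wwtr1 and Yap1, which encode the transcriptional coactivators TAZ and YAP; Tead1, which encodes a DNA-binding partner of both coactivators; and Amotl2, which encodes an angiomotin-family protein. The members were chosen by the gene name that the array gives each probe, with the older and the current CCN symbols both accepted. That gave 6 genes and 7 probes of 41174 probes on the array. The brightest probe stood for each gene, and 5 of the 6 genes were tested among 11377 features.

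In the Hippo pathway a cascade of kinases phosphorylates YAP and TAZ and keeps them in the cytoplasm. When the cascade is less active, the coactivators enter the nucleus and bind TEAD proteins, and Ccn2, Ccn1 and Amotl2 are commonly used as readouts of that step. CCN2 is also induced by TGF-beta and by serum response factor with its MRTF cofactors, and in the heart it is known for its place in scar formation and fibrosis. Phosphorylation and nuclear entry were not measured here, and transcript levels alone were available.

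The groups were MuRF1 Tg+ mice after ischemia-reperfusion (I/R), MuRF1 Tg+ mice after sham surgery, wild-type mice (MuRF1+/+) after I/R and wild-type mice after sham surgery, all 12 to 16 weeks old. In I/R the left anterior descending artery of the heart is tied off and then reopened. Each of 12 hearts, 3 for each genotype and surgery, gave a piece from below and a piece from above the tie, or the place where a tie would sit in sham hearts, so that 8 groups of 3 arrays made up the 24 arrays. Pieces of 1 heart are not independent of each other. Each array held a heart piece in the Cy5 channel and a pool of whole C57BL/6 pups of postnatal day 1 in the Cy3 channel, so every level below is a log2 ratio of a heart piece to that pool. The labels do not say which promoter drives the transgene, nor how long the artery was closed or open.

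The pieces were heart tissue by their markers: Myh6, the adult atrial and ventricular myosin heavy chain, was well above background on 24 of 24 arrays, at log2 ratios of 2.28 to 4.57. Trim63, which encodes MuRF1, did not separate the genotypes in sham hearts, where Tg+ minus wild type was -0.07 ± 0.39 (SE) below and 0.03 ± 0.39 above, with adjusted p = 1 in limma for both. The labels do not tell whether the transgene holds the stretch that the Trim63 probe reads, so this is no check of the genotypes, which are used as labelled. Less than 25% of Cy5 spots were well above background on 5 arrays, all of I/R pieces. From below the tie these were replicates 2 and 3 of Tg+ and replicate 1 of wild type, and from above it replicates 1 and 2 of wild type. The other I/R arrays lay between 28.3% and 38.3%, and sham arrays between 34.6% and 43.3%. In a piece of tissue, fewer cells of a type and less RNA per cell cannot be told apart.

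The sequences below show the promoters of the members for which RefSeq's promoter table has a window: Ccn1, Amotl2, Wwtr1 and Yap1. A TEAD-binding motif is what links the coactivators to their targets, while Wwtr1 and Yap1 encode the coactivators themselves. No window was held for Ccn2 or Tead1, so the motif was not searched in the promoter of Ccn2. The table is on build GRCm38.p6. Its windows hold 250 bases before the start of the gene, read 5′ to 3′ on the strand of the gene. The motif searched was GGAATG on either strand (CATTCC when read on the other), the core of the element that TEAD proteins bind, and the capitals mark it.
Ccn1, chr3:145649986-145650235, minus strand: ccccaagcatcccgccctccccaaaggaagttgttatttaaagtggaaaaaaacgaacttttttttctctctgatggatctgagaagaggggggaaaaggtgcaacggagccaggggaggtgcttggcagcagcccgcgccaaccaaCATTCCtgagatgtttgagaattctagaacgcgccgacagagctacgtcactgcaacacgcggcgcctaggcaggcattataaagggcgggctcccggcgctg
Amotl2, chr9:102717554-102717803, plus strand: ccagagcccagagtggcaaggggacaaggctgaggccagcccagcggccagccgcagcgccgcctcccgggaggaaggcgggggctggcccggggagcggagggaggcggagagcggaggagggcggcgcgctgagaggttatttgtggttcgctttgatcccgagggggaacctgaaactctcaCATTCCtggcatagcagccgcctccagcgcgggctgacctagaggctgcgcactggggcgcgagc
Wwtr1, chr3:57575911-57576160, minus strand: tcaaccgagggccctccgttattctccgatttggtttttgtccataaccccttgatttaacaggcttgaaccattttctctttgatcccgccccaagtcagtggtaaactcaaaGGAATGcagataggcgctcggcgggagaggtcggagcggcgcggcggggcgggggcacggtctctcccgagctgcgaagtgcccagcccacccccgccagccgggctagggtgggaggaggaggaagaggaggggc
Yap1, chr9:8004597-8004846, minus strand: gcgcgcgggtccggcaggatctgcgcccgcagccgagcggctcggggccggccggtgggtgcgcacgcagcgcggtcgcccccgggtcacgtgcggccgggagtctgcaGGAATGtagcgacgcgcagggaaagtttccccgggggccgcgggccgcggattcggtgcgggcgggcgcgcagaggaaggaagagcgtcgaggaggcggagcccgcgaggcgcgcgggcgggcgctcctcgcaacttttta
Each of these 4 windows held the motif 1 time. Its first base lay 103 bases before the start in Ccn1, 65 in Amotl2, 136 in Wwtr1 and 141 in Yap1. Of all 32851 windows of the same length in the table, 12.6% held it. Counted by gene, 14.4% of the 27025 genes with a window had it. A second Wwtr1 window of the table overlaps the one shown and holds the same match. A match of letters is not evidence of binding, and binding was not measured here.

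Detection came first, since it set which members could be compared. The Ccn2 and Ccn1 probes were well above background in Cy5 on all 24 arrays. The brighter Wwtr1 probe was so on 23 arrays, Amotl2 on 21 and Yap1 on 17. The probe named Tead1 was well above background on 0 arrays, in Cy5 as in Cy3, so it failed the filter on dim probes and was not tested. Its log ratio lay between -0.03 and 0.17 on all arrays, a level at which it is not a measure of Tead1. A pair of other probes carries the name 2610024B07Rik, an older symbol of Tead1 in RefSeq. They are described further on, outside the counts of members. The brighter one was above background on all 24 arrays and the other on 19.

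Ccn2 rose after I/R in both pieces of both genotypes. It was 7.83-fold higher in Tg+ I/R pieces below the tie and 8.69-fold above it, and 3.73-fold higher in wild-type I/R pieces below and 4.46-fold above, each against its sham group. Wwtr1 fell in 3 of these 4 comparisons. Ccn1, Yap1 and Amotl2 passed in none. Of the 5 tested members, 2 passed in Tg+ below, 1 in Tg+ above, 2 in wild type below and 2 in wild type above, at limma adjusted p under 0.05. Of all 11377 features, 32.6%, 15.4%, 5.64% and 13.4% passed in the same order of comparisons. Increases made up 15.4%, 6.96%, 2.15% and 5.99% of all features, and decreases 17.2%, 8.39%, 3.49% and 7.37%. The median difference over all features was 0.00 in each comparison. Over the 5 members it was -0.01, 0.20, 0.04 and 0.03 in that order. With 5 members such counts say little about the set as a whole, and the genes are described one by one.

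Ccn2, the secreted CCN protein that binds integrins and growth factors in the matrix, had log2 ratios of 1.88, 2.83 and 3.32 in Tg+ I/R pieces below the tie, against -0.58, -0.24 and -0.07 in Tg+ sham pieces. Above the tie they were 2.16, 2.63 and 3.94 in Tg+ I/R pieces, against -0.43, 0.00 and -0.19 in Tg+ sham pieces. Every I/R array of this genotype was far above every sham array. In wild type, I/R pieces below the tie had 2.22, 1.38 and 0.62, against -0.47, -0.69 and -0.30 in sham pieces. Above the tie, wild-type I/R pieces had 0.16, 2.56 and 2.40, against -0.37, -0.47 and -0.51 in sham pieces. Replicate 1 of the wild-type I/R pieces above the tie was the lowest of the 12 I/R arrays, and still higher than the highest sham array. The I/R and sham groups therefore did not overlap in any of the 4 comparisons. Groups did not overlap for 53.5% of all features in Tg+ below, 48.7% in Tg+ above, 22.9% in wild type below and 33.9% in wild type above.

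**Figure D1:**
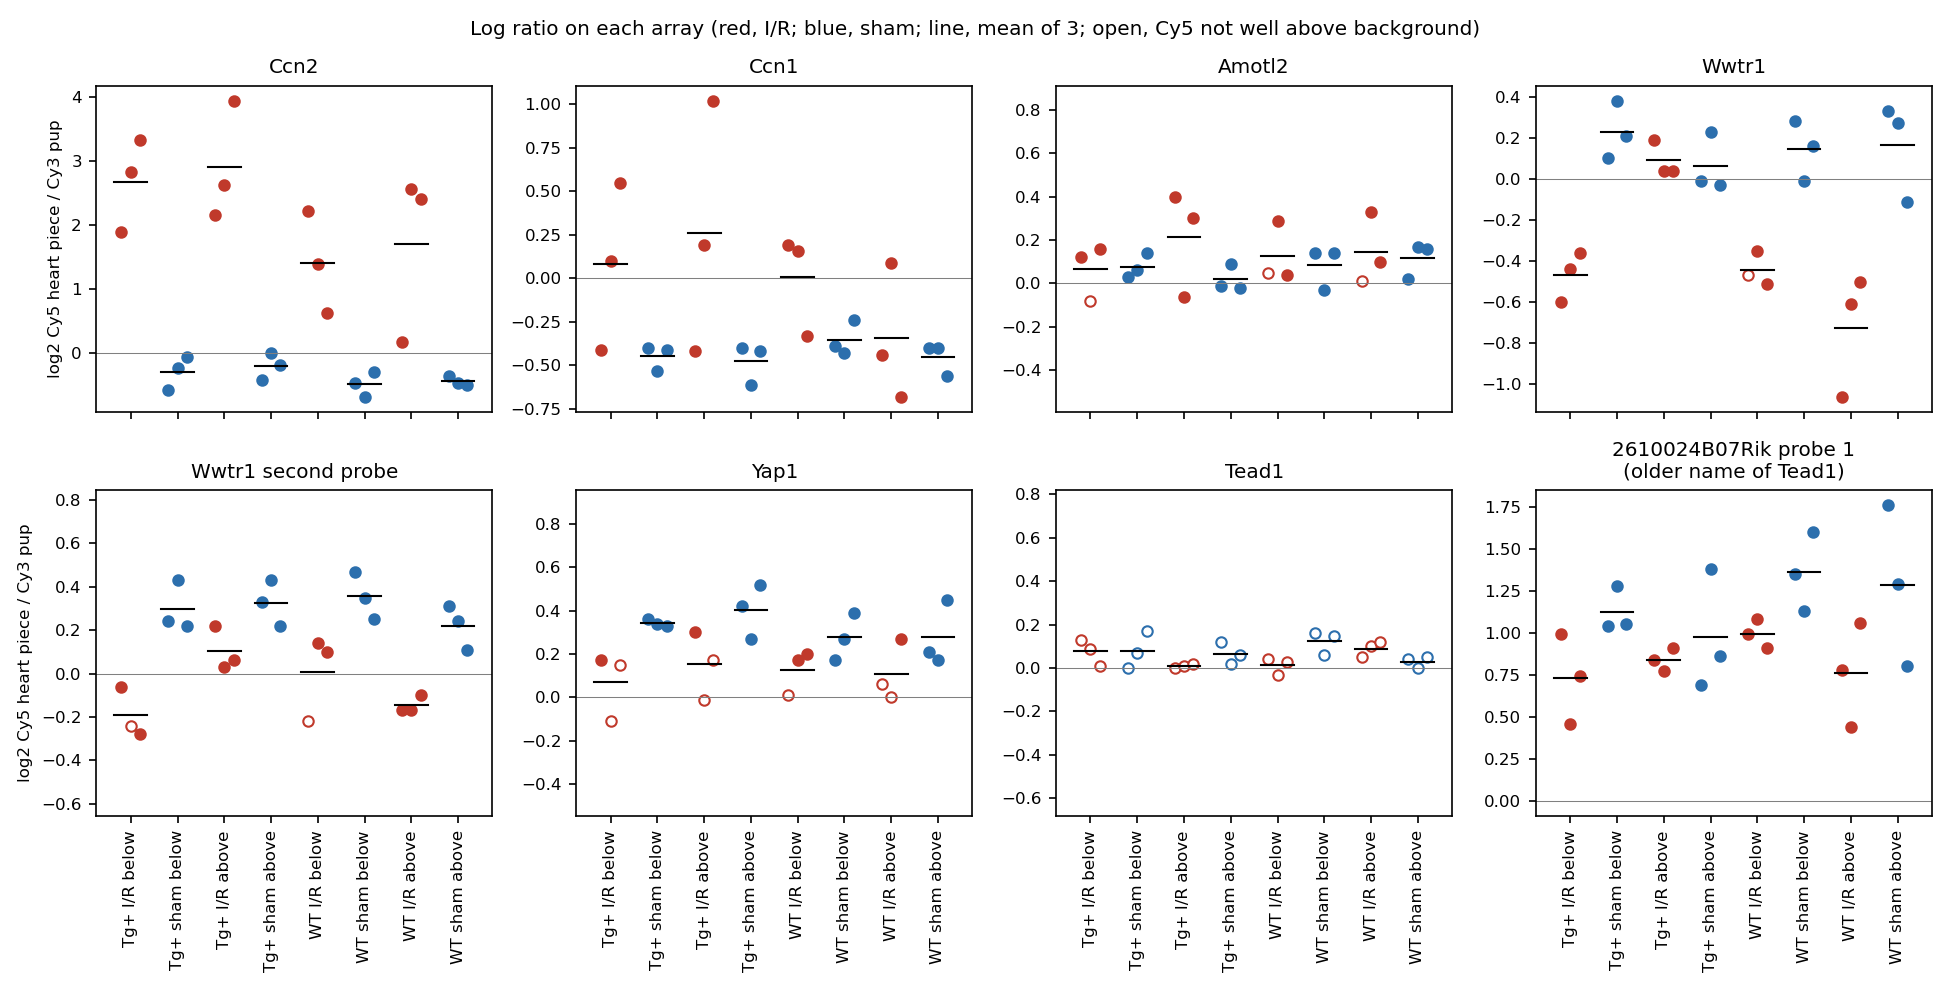
Log2 ratio of heart piece (Cy5) to pup pool (Cy3) on each of the 24 arrays, for the 6 members, the second Wwtr1 probe and a probe under an older name of Tead1. Points are arrays, lines are means of 3 and open points are spots not well above background in Cy5. All 12 I/R points of Ccn2 lie above its 12 sham points, and the Wwtr1 points of I/R pieces lie under those of sham pieces except in Tg+ above the tie.

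The fitted I/R minus sham difference of Ccn2 was 2.97 ± 0.53 (SE; limma adjusted p = 0.000707) in Tg+ below the tie and 3.12 ± 0.53 (adjusted p = 0.00128) in Tg+ above it. In wild type it was 1.90 ± 0.53 (adjusted p = 0.0422) below and 2.16 ± 0.53 (adjusted p = 0.0119) above. Without the 5 arrays of weak Cy5 signal it passed in all 4: 2.17 (adjusted p = 0.00383), 3.12 (adjusted p = 2.7e-06), 1.49 (adjusted p = 0.011) and 2.85 (adjusted p = 0.000418) in the same order. That fit leaves 1 I/R array each in Tg+ below and wild type above, and assumes that it varies like the other groups. The wild-type call below the tie was lost when any 1 of 5 arrays of its 6 was left out (adjusted p up to 0.15), and was kept without wild-type I/R below replicate 3. The wild-type call above was lost without wild-type I/R above replicate 2 (1.73, adjusted p = 0.0741). With only the arrays of the comparison in the fit, adjusted p was 0.152 in wild type below and 0.0625 in wild type above. With median centring in place of loess the differences were 1.27 (adjusted p = 0.142), 2.66 (adjusted p = 0.0406), 1.12 (adjusted p = 0.486) and 1.06 (adjusted p = 0.235) in the order given. With slide as a block, adjusted p was 0.0635 in Tg+ below, 0.0189 in Tg+ above, 0.329 in wild type below and 0.388 in wild type above. Within the 1 slide that held both groups of a comparison, with 1 array of each, Ccn2 was 2.90 higher after I/R in Tg+ below, 2.82 higher in Tg+ above, 0.93 higher in wild type below and 0.53 higher in wild type above.

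The order of the Ccn2 group means was Tg+ I/R above (2.91 ± 0.92 SD, n = 3), Tg+ I/R below (2.68 ± 0.73), wild-type I/R above (1.71 ± 1.34), wild-type I/R below (1.41 ± 0.80), Tg+ sham above (-0.21 ± 0.21), Tg+ sham below (-0.29 ± 0.26), wild-type sham above (-0.45 ± 0.07) and wild-type sham below (-0.49 ± 0.20). A single pair of neighbours in this order lay farther apart than the larger of their SDs, and it was the step between the lowest I/R group and the highest sham group, a gap of 1.62. The genotype difference after I/R, Tg+ minus wild type, was 1.27 ± 0.53 below (95% interval 0.16 to 2.38, adjusted p = 0.156) and 1.20 ± 0.53 above (0.09 to 2.31, adjusted p = 0.308). The value above the tie was 0.43 (adjusted p = 0.826) without wild-type I/R above replicate 1, whose Ccn2 was the lowest of the I/R arrays, 0.69 (adjusted p = 0.678) without Tg+ I/R above replicate 3, and 0.51 (adjusted p = 0.636) without the 5 weak arrays. Below the tie the difference was 1.67 and passed (adjusted p = 0.0214) once replicate 1 of the wild-type I/R pieces was left out. The difference between the I/R effects in Tg+ and in wild type was 1.07 ± 0.75 below (adjusted p = 0.572) and 0.96 ± 0.75 above (adjusted p = 0.838). The one above the tie was 0.19 without wild-type I/R above replicate 1 and 0.44 without Tg+ I/R above replicate 3, and the one below was 0.68 without wild-type I/R below replicate 3. No slide held both genotypes after I/R in the same piece, so no within-slide value can be given.

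Ccn1, the immediate-early CCN relative of Ccn2, was much dimmer. Its mean Cy5 signal was 103 intensity units, against 1166 for Ccn2, although different probes do not give comparable levels. In Tg+ I/R pieces its log2 ratios were -0.41, 0.10 and 0.55 below the tie and -0.42, 0.19 and 1.02 above it. Tg+ sham pieces had -0.40, -0.53 and -0.41 below and -0.40, -0.61 and -0.42 above. In each Tg+ I/R group replicate 1 sat at the sham level and the other replicates above it. Wild-type I/R pieces had 0.19, 0.16 and -0.33 below and -0.44, 0.09 and -0.68 above, against -0.39, -0.43 and -0.24 below and -0.40, -0.40 and -0.56 above in sham pieces.

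The Ccn1 difference, I/R minus sham, was 0.52 ± 0.27 (adjusted p = 0.139) in Tg+ below and 0.74 ± 0.27 (95% interval 0.17 to 1.31, adjusted p = 0.0708) in Tg+ above. It was 0.36 ± 0.27 (adjusted p = 0.49) in wild type below and 0.11 ± 0.27 (adjusted p = 0.797) in wild type above. The groups overlapped in every one of these comparisons. In wild-type I/R pieces above the tie, the Cy5 signal of Ccn1 was 48.1 in replicate 1 and 49.8 in replicate 2. At such levels the added offset of 50 pulls log ratios toward 0, which limits what differences can be seen. In Tg+ above the difference passed without Tg+ I/R above replicate 1 (1.08, adjusted p = 0.00961) and without the 5 weak arrays (0.74, adjusted p = 0.0175). Leaving out replicate 1 of the Tg+ I/R pieces below the tie gave 0.77 there (adjusted p = 0.0379). Over the 24 arrays Ccn1 and Ccn2 had a Pearson correlation of 0.74, a description over arrays that share hearts and groups.

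Amotl2, whose protein belongs to the angiomotins that bind YAP and TAZ at cell junctions and is itself a transcriptional target of YAP, passed in no comparison. Its log2 ratio lay between -0.08 and 0.40 on the 12 I/R arrays, with a median of 0.11, and between -0.03 and 0.17 on the 12 sham arrays, with a median of 0.08. The I/R minus sham difference was -0.01 (95% interval -0.24 to 0.22) in Tg+ below, 0.20 (-0.04 to 0.43) in Tg+ above, 0.04 (-0.19 to 0.27) in wild type below and 0.03 (-0.20 to 0.26) in wild type above. Adjusted p ran from 0.234 to 0.941. The signs of these small values changed between processing settings. The mean Cy5 signal of the probe was 60.9 intensity units, against 39.0 for the undetected probe named Tead1. The added offset of 50 pulls log ratios of such dim spots toward 0.

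**Figure D2:**
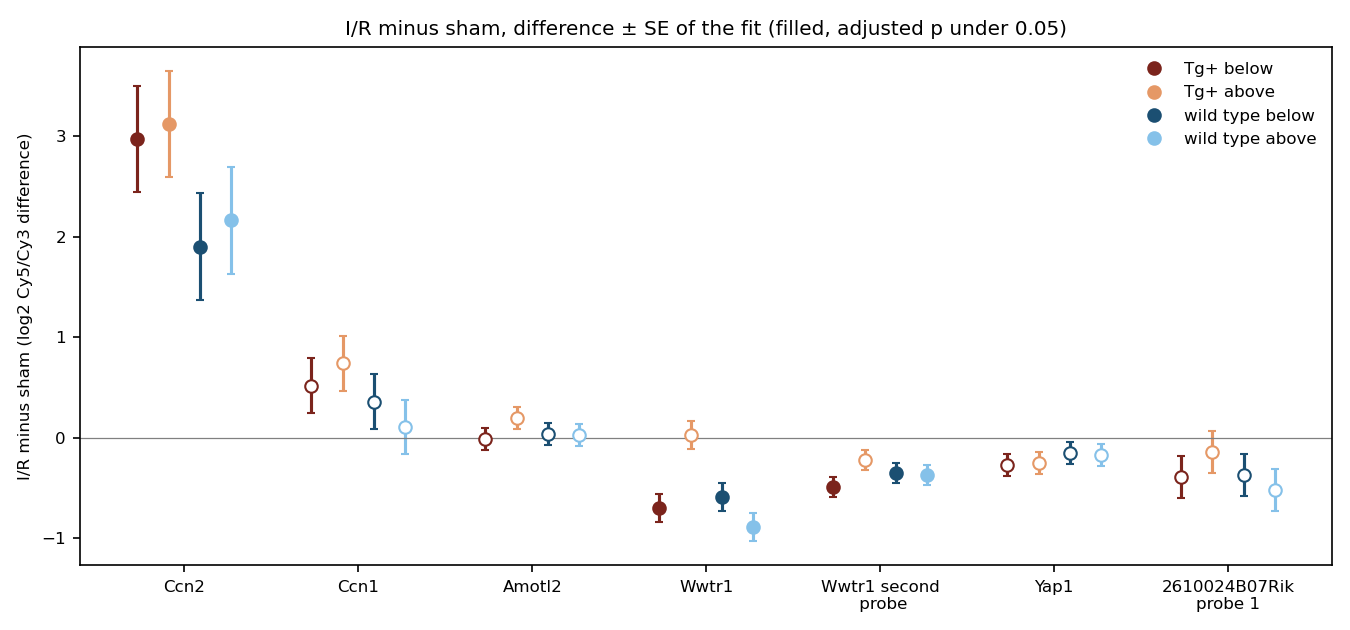
I/R minus sham difference in log2 ratio for the tested members, the second Wwtr1 probe and the brighter probe under an older name of Tead1, in each genotype and piece. Bars are standard errors of the limma fit and filled points passed at adjusted p under 0.05. Ccn2 is at 1.90 to 3.12 and filled in all 4 comparisons, and the brighter Wwtr1 probe is filled in all but Tg+ above.

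Wwtr1, which encodes TAZ, fell in 3 of the 4 comparisons in which Ccn2 rose. In Tg+ below the tie the log2 ratios of its brighter probe were -0.60, -0.44 and -0.36 in I/R pieces, against 0.10, 0.38 and 0.21 in sham pieces. In wild type below the tie they were -0.47, -0.35 and -0.51 in I/R pieces, against 0.28, -0.01 and 0.16 in sham pieces. In wild type above the tie they were -1.06, -0.61 and -0.50 in I/R pieces, against 0.33, 0.27 and -0.11 in sham pieces. In these 3 comparisons every I/R array was lower than every sham array, although wild-type I/R below replicate 1 was not well above background in Cy5. Groups did not overlap, in either direction, for 53.5%, 22.9% and 33.9% of all features in the same order. In Tg+ above the tie I/R pieces had 0.19, 0.04 and 0.04, against -0.01, 0.23 and -0.03 in sham pieces, and the groups overlapped.

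The fitted I/R minus sham difference was -0.70 ± 0.14 (limma adjusted p = 0.00139, 1.62-fold lower) in Tg+ below and 0.03 ± 0.14 (adjusted p = 0.894) in Tg+ above. It was -0.59 ± 0.14 (adjusted p = 0.0166, 1.5-fold lower) in wild type below and -0.89 ± 0.14 (adjusted p = 0.000574, 1.85-fold lower) in wild type above. Without the 5 weak arrays the values were -0.83 (adjusted p = 0.00331), 0.03 (adjusted p = 0.852), -0.57 (adjusted p = 0.00876) and -0.67 (adjusted p = 0.0118) in the same order. Within the shared slides, with 1 array of each group, they were -0.65, 0.08, -0.68 and -1.39. The wild-type call below was lost without wild-type sham below replicate 1 (adjusted p = 0.0826) or replicate 3 (adjusted p = 0.0622) and with 6 of the 12 other settings, slide as a block among them (adjusted p = 0.254). With slide as a block the adjusted p was 0.0584 in Tg+ below and 0.0117 in wild type above.

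A second Wwtr1 probe, printed here because it read the same gene at another place, allows a check within the gene. It is 60 bases long while its coordinates on the array span 3468 bases of chromosome 3, so it crosses a splice junction.
Wwtr1 second probe: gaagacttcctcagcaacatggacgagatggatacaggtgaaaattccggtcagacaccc
It was above background in Cy5 on 22 arrays. In Tg+ below the tie it had -0.06, -0.24 and -0.28 in I/R pieces, against 0.24, 0.43 and 0.22 in sham pieces. Wild-type I/R pieces had -0.22, 0.14 and 0.10 below, against 0.47, 0.35 and 0.25 in sham pieces, and -0.17, -0.17 and -0.10 above, against 0.31, 0.24 and 0.11 in sham pieces. In Tg+ above the tie I/R pieces had 0.22, 0.03 and 0.06, against 0.33, 0.43 and 0.22 in sham pieces. Each group of I/R pieces had the lower mean by this probe. The differences were -0.49 ± 0.10 (adjusted p = 0.00172) in Tg+ below, -0.22 ± 0.10 (adjusted p = 0.126) in Tg+ above, -0.35 ± 0.10 (adjusted p = 0.0459) in wild type below and -0.37 ± 0.10 (adjusted p = 0.0197) in wild type above. Both probes thus passed in the same 3 comparisons, and the second probe gave smaller differences in those 3. Its spots were not well above background in wild-type I/R below replicate 1 and Tg+ I/R below replicate 2. Both probes were read on the same weak arrays, so the shared calls do not check for weak signal.

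Genotype separated the brighter Wwtr1 probe above the tie after I/R, although no slide held both genotypes in this comparison. Tg+ I/R pieces (0.09 ± 0.09 SD, n = 3) lay above wild-type I/R pieces (-0.72 ± 0.30, n = 3) without overlap, and Tg+ minus wild type was 0.81 ± 0.14 (SE; adjusted p = 0.0164, 1.76-fold higher). It was the 1 call among the 5 members in this comparison, in which 0.65% of all features passed and 14.8% did not overlap. The call was lost without the 5 weak arrays (0.59, adjusted p = 0.105), of which 2 are wild-type I/R pieces above the tie. It was lost in 5 of the other settings as well: median centring (1.46, adjusted p = 0.628), Agilent's log ratio (1.26, adjusted p = 0.0842), the Cy5 channel alone (1.10, adjusted p = 0.0872), the series table (1.26, adjusted p = 0.0841) and only the arrays of the comparison (0.81, adjusted p = 0.434). With median centring and with only the arrays of the comparison, 0% of all features passed here, so those losses say little about Wwtr1. Leaving out replicate 1 of the wild-type pieces ended the call too (0.65, adjusted p = 0.119), as did leaving out replicate 2 (0.84, adjusted p = 0.0593) or replicate 3 (0.84, adjusted p = 0.0998) of the Tg+ pieces. The second probe did not pass, at 0.25 ± 0.10 (adjusted p = 0.247). Below the tie the brighter probe gave -0.02 ± 0.14 (adjusted p = 0.918).

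The test of the difference itself did not pass for Wwtr1. The I/R effect in Tg+ minus that in wild type was 0.92 ± 0.19 above the tie (95% interval 0.51 to 1.32, limma adjusted p = 0.163) by the brighter probe and 0.15 ± 0.14 (adjusted p = 0.896) by the second. Between pieces of Tg+ I/R hearts, below minus above was -0.56 ± 0.14 (adjusted p = 0.0642) by the brighter probe and -0.30 ± 0.10 (adjusted p = 0.129) by the second. The I/R effect below minus that above was -0.73 ± 0.19 (adjusted p = 0.603) in Tg+ and 0.30 ± 0.19 (adjusted p = 1) in wild type.

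The 8 Wwtr1 group means of the brighter probe ran from 0.23 ± 0.14 (SD, n = 3) in Tg+ sham below, through wild-type sham above (0.16 ± 0.24), wild-type sham below (0.14 ± 0.15), Tg+ I/R above (0.09 ± 0.09) and Tg+ sham above (0.06 ± 0.14), to wild-type I/R below (-0.44 ± 0.08), Tg+ I/R below (-0.47 ± 0.12) and wild-type I/R above (-0.72 ± 0.30). The 1 gap larger than the SDs of its neighbours, 0.50, lay between Tg+ sham above and wild-type I/R below. By this probe it left Tg+ I/R pieces above the tie among the sham groups. The second probe gave another order. Its 1 gap larger than the SDs, 0.12, lay between wild-type sham above (0.22 ± 0.10) and Tg+ I/R above (0.10 ± 0.10). By that probe Tg+ I/R pieces above the tie lay under all sham groups, with the other I/R groups.

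Yap1, the partner coactivator, was lower on average after I/R, but its probe was dim and no comparison passed. It was detected above background in Cy5 on 5 of the 12 I/R arrays and on all 12 sham arrays. Only sham groups had it well above background on every array, so it passed the filter on dim probes through those groups alone. The filter thus favoured higher sham values, and the differences below are a description, not support for a decrease. Log2 ratios lay between -0.11 and 0.30 on I/R arrays, with a median of 0.16, and between 0.17 and 0.52 on sham arrays, with a median of 0.33. In Tg+ below the tie I/R pieces had 0.17, -0.11 and 0.15, against 0.36, 0.34 and 0.33 in sham pieces, with no overlap. Of these I/R arrays, 1 had the probe well above background. Groups did not overlap for 53.5% of all features in this comparison. The I/R minus sham differences were -0.27 ± 0.11 (95% interval -0.49 to -0.04, adjusted p = 0.0597) in Tg+ below, -0.25 ± 0.11 (adjusted p = 0.113) in Tg+ above, -0.15 ± 0.11 (adjusted p = 0.442) in wild type below and -0.17 ± 0.11 (adjusted p = 0.281) in wild type above. The value in Tg+ below passed when its I/R replicate 1 was left out (-0.32, adjusted p = 0.0391) and in 4 of the 12 other settings (adjusted p from 0.0261 to 0.0414), and that in Tg+ above passed without the 5 weak arrays (-0.25, adjusted p = 0.0402) and with array weights (-0.33, adjusted p = 0.00464).

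For Tead1, the brighter probe under its older name gave log2 ratios of 0.44 to 1.08 on I/R arrays and 0.69 to 1.76 on sham arrays. I/R minus sham was -0.39 ± 0.21 (adjusted p = 0.152) in Tg+ below, -0.14 ± 0.21 (adjusted p = 0.669) in Tg+ above, -0.37 ± 0.21 (adjusted p = 0.343) in wild type below and -0.52 ± 0.21 (adjusted p = 0.101) in wild type above. The dimmer of these probes gave -0.09, -0.09, -0.39 and -0.35 in the same order, with adjusted p from 0.123 to 0.715. No comparison passed by either probe. That these probes read Tead1 rests on the symbol alone.

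Without injury no member separated the genotypes or the pieces. Tg+ minus wild type in sham hearts lay between -0.09 and 0.20 below and between -0.10 and 0.24 above over the 5 members, with adjusted p = 1 for each, and 0 of 5 had an unadjusted p under 0.05 in either piece. Of all features, 0.0264% and 0.0352% passed in these comparisons. Below minus above in sham hearts lay between -0.08 and 0.17 in Tg+ and between -0.04 and 0.10 in wild type, again with 0 of 5 members and 0% of all features past the threshold, and with 0 of 5 members at an unadjusted p under 0.05. After I/R, 0 of 5 members passed in Tg+ minus wild type below the tie (2.88% of all features did, and 1 member had an unadjusted p under 0.05). In below minus above, 0 of 5 passed in Tg+ (0.545% of features, 1 member at an unadjusted p under 0.05) and 0 of 5 in wild type (0.0176%, 0 members). Across the tests of a difference between I/R effects, 0 of 5 members passed. Between genotypes 0.0176% of features passed below and 0.0176% above, and between pieces 0% passed in either genotype. At an unadjusted p under 0.05 there were 0 members below and 1 above between genotypes, and 1 in Tg+ and 0 in wild type between pieces.

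**Figure D3:**
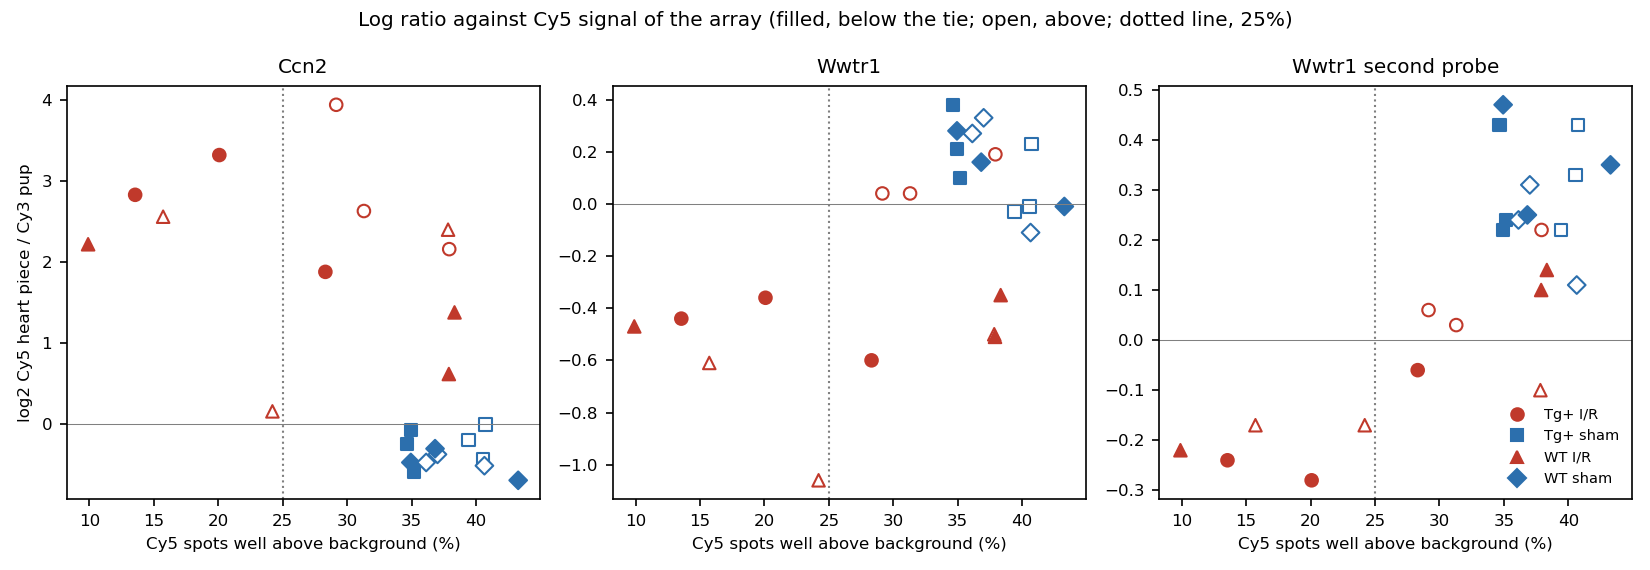
Log2 ratio of Ccn2 and of both Wwtr1 probes on each array, against the percentage of Cy5 spots well above background on that array. Red marks are I/R and blue marks sham, filled marks are from below and open marks from above the tie, and the dotted line is at 25%. I/R arrays with Cy5 shares near those of sham arrays still have higher Ccn2 than any sham array, while the second Wwtr1 probe is lowest on arrays left of the line.

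The strength of the heart channel moved with some of these values. Ccn2 was high on I/R arrays on either side of the 25% line: the 7 I/R arrays of stronger signal had 0.62 to 3.94, and the 5 weak ones 0.16 to 3.32. The brighter Wwtr1 probe had -0.60 to 0.19 on the stronger I/R arrays and -1.06 to -0.36 on the weak ones. The second probe had -0.10 to 0.22 on the stronger I/R arrays and -0.28 to -0.17 on the weak ones. The 5 weak arrays were thus its lowest 5 of 24. The part of signal strength in the Wwtr1 differences was not tested beyond the fits without the weak arrays given above. Those fits are of the brighter probe alone, so the calls of the second probe were not tested against weak signal. On the stronger I/R arrays the second probe had -0.06 in Tg+ below, 0.14 and 0.10 in wild type below and -0.10 in wild type above. The lowest sham values of these comparisons were 0.22, 0.25 and 0.11.

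Markers of other cell types also moved with surgery, as mean log2 ratios over the tested genes of each list. Fibroblast markers (12 of 12 listed genes tested) ranged from -1.72 to -0.54 in Tg+ I/R below, -1.19 to -1.02 in Tg+ I/R above, -2.22 to -0.69 in wild-type I/R below and -1.44 to -1.10 in wild-type I/R above, against -2.05 to -1.57 on sham arrays. Neutrophil markers (6 of 10) ranged from -0.37 to 0.22, -1.31 to -0.37, -0.84 to 0.26 and -1.24 to 0.11 in the same I/R groups, against -2.01 to -1.73 on sham arrays. Epicardial and mesothelial markers (6 of 9) ranged from -1.01 to -0.40, -0.95 to -0.60, -1.45 to -0.43 and -0.94 to 0.01, against -1.66 to -1.37. Monocyte and macrophage markers (12 of 13) ranged from 0.05 to 0.14, 0.08 to 0.25, -0.20 to 0.02 and -0.18 to 0.44, against -0.46 to -0.13. Atrial markers (9 of 10) ranged from -0.28 to 0.31, 1.47 to 1.72, -0.61 to 0.00 and -0.06 to 2.70, against -0.80 to 1.14, with the highest I/R values in pieces from above the tie. Ventricular markers (7 of 11) ranged from 1.99 to 3.23, 3.20 to 3.36, 2.50 to 3.65 and 3.21 to 3.51, against 3.53 to 3.95. Endothelial markers (12 of 12) ranged from 0.53 to 1.30, 0.70 to 0.93, 0.34 to 0.66 and 0.25 to 0.72, against 0.43 to 0.96. Smooth muscle and pericyte markers (10 of 10) ranged from -0.74 to -0.37, -0.32 to -0.24, -0.75 to -0.41 and -0.58 to -0.32, against -0.60 to -0.18. By these means the neutrophil list alone left no overlap between all I/R and all sham arrays. Single genes of the vessel lists fell in the same 3 comparisons as Wwtr1 and did not pass in Tg+ above. These were Kdr and Tek, endothelial receptors for VEGF and for angiopoietins, and Rgs5, a pericyte marker, all named after their values were seen. Kdr fell by 0.66 in Tg+ below, by 1.18 in wild type below and by 1.26 in wild type above, and was at -0.38 in Tg+ above. Tek fell by 0.37, by 0.35 and by 0.44 in these 3 comparisons and was at -0.23 in Tg+ above. Rgs5 fell by 1.47, by 0.94 and by 0.81 and was at -0.58 in Tg+ above. No other gene of the 8 marker lists had that pattern of decreases. Outside these lists Ctnna1, a junction gene described below, fell in the same 3 comparisons and was at -0.32 in Tg+ above. The share of all features with the pattern was not counted, so it is not shown to be particular to vessel genes. Other endothelial markers rose: Fabp4 by 2.29 in Tg+ below (limma adjusted p = 0.0387) and Cd36 by 1.10 in Tg+ above (adjusted p = 0.00589). Of 12 tested endothelial markers, 1 rose and 2 fell in Tg+ below and 1 rose in Tg+ above. In wild type 2 fell below and 3 above. Median differences were 0.14, 0.28, -0.35 and -0.29. Of 10 smooth muscle and pericyte markers, 1, 2, 0 and 1 rose and 2, 2, 2 and 4 fell in that order. The part of these marker shifts in the differences of Ccn2 and Wwtr1 was not tested.

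Other genes of the pathway were taken from lists chosen for their place in it. In the main fit 32.6%, 15.4%, 5.64% and 13.4% of all features passed in Tg+ below, Tg+ above, wild type below and wild type above. Increases were 15.4%, 6.96%, 2.15% and 5.99% of all features and decreases 17.2%, 8.39%, 3.49% and 7.37%. Counts are also given without the 5 weak arrays, when 13.5%, 41.8%, 11.8% and 12.9% of all features passed in Tg+ below, Tg+ above, wild type below and wild type above. Of 4 tested CCN genes, 2 rose in Tg+ below, 2 in Tg+ above, 1 in wild type below and 2 in wild type above, and none fell. The list holds Ccn2 and Ccn1. Its median difference was 0.68, 0.66, 0.43 and 0.42 in that order, against 0.00 over all features. Leaving out the weak arrays, 1, 4, 1 and 1 rose. Ccn4, a CCN protein known as a WNT-induced secreted factor, rose by 0.84 ± 0.22 in Tg+ below (adjusted p = 0.00997) and 0.73 ± 0.22 in wild type above (adjusted p = 0.0386), with 0.53 in Tg+ above and 0.50 in wild type below not passing. Ccn5, the CCN protein that lacks the C-terminal cystine-knot domain, rose by 0.58 ± 0.16 in Tg+ above (adjusted p = 0.0227), with values of -0.05, -0.24 and -0.12 elsewhere.

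Of 10 tested genes for receptors and co-receptors that bind CCN proteins, 4 rose and 1 fell in Tg+ below, 4 rose in Tg+ above, none passed in wild type below, and 1 rose and 1 fell in wild type above. Median differences were 0.20, 0.30, 0.17 and 0.19. Without the weak arrays 2, 6, 1 and 3 rose and 1 fell in each comparison. Itgb5, the integrin beta5 subunit, was 0.52 and 0.54 higher in Tg+ below and above (adjusted p = 0.00739 and 0.0112). Lrp1, an endocytic receptor, was 0.53 and 0.77 higher (adjusted p = 0.0421 and 0.013). Sdc4, a heparan sulfate proteoglycan of focal adhesions, was 0.40 and 0.50 higher in Tg+ below and above and 0.42 higher in wild type above. Itga5, the alpha subunit of the fibronectin receptor, was 0.31 and 0.34 higher in Tg+. Lrp6, the WNT co-receptor, fell by 0.35 ± 0.09 in Tg+ below (adjusted p = 0.00714) and by 0.35 ± 0.09 in wild type above (adjusted p = 0.0154).

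Upstream of the coactivators came the Hippo kinases and scaffolds. Of 16 tested genes, 1 rose in Tg+ below, 0 passed in the other 3 comparisons, and the medians lay between -0.03 and 0.06. Of all features, 32.6% passed in Tg+ below, 15.4% in Tg+ above, 5.64% in wild type below and 13.4% in wild type above. With 16 genes a count of 0 says little beside the smaller of these shares. The gene that rose was Taok3, a TAO kinase (0.67 ± 0.18, adjusted p = 0.00859). Without the 5 weak arrays the counts were 0 in Tg+ below, 1 higher and 2 lower in Tg+ above, 3 lower in wild type below and 2 lower in wild type above. Of 13 tested motins, junction proteins, 14-3-3 proteins and LIM proteins that restrain the kinases, 3 rose and 1 fell in Tg+ below, 1 rose in Tg+ above, and 1 fell in each wild-type comparison. Medians lay between -0.01 and 0.06. Without the weak arrays 0, 2, 1 and 1 rose and 1, 1, 1 and 0 fell. Ctnna1, alpha-catenin of adherens junctions, fell by 0.72 ± 0.17 in Tg+ below (adjusted p = 0.00425), by 0.59 in wild type below (adjusted p = 0.0439) and by 0.61 in wild type above (adjusted p = 0.0222). Wtip, an Ajuba-family LIM protein, was 0.70 ± 0.20 higher in Tg+ below (adjusted p = 0.0118) and 0.63 ± 0.20 higher in Tg+ above (adjusted p = 0.035). The 14-3-3 genes Ywhaz and Ywhaq, whose proteins hold phosphorylated YAP in the cytoplasm, were 0.77 and 0.45 higher in Tg+ below (adjusted p = 0.0442 and 0.0388).

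Among 7 tested genes for YAP, TAZ, TEADs and cofactors, 1 rose and 2 fell in Tg+ below, 1 rose and 1 fell in Tg+ above, 1 fell in wild type below and 2 fell in wild type above. Medians were -0.27, 0.03, -0.15 and -0.17. Without the weak arrays 3 rose, all in Tg+ above, and 1, 2, 1 and 1 fell. In this list Tead1 is represented by the probe under its older name. Vgll3, a vestigial-like cofactor of TEADs, was 0.50 ± 0.14 higher in Tg+ below (adjusted p = 0.0147) and 0.65 ± 0.14 higher in Tg+ above (adjusted p = 0.00671). Srf, serum response factor, fell by 0.51 ± 0.16 in Tg+ below, Tg+ above and wild type above (adjusted p = 0.0208, 0.0353 and 0.0387), and its value in wild type below was -0.37.

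**Figure D4:**
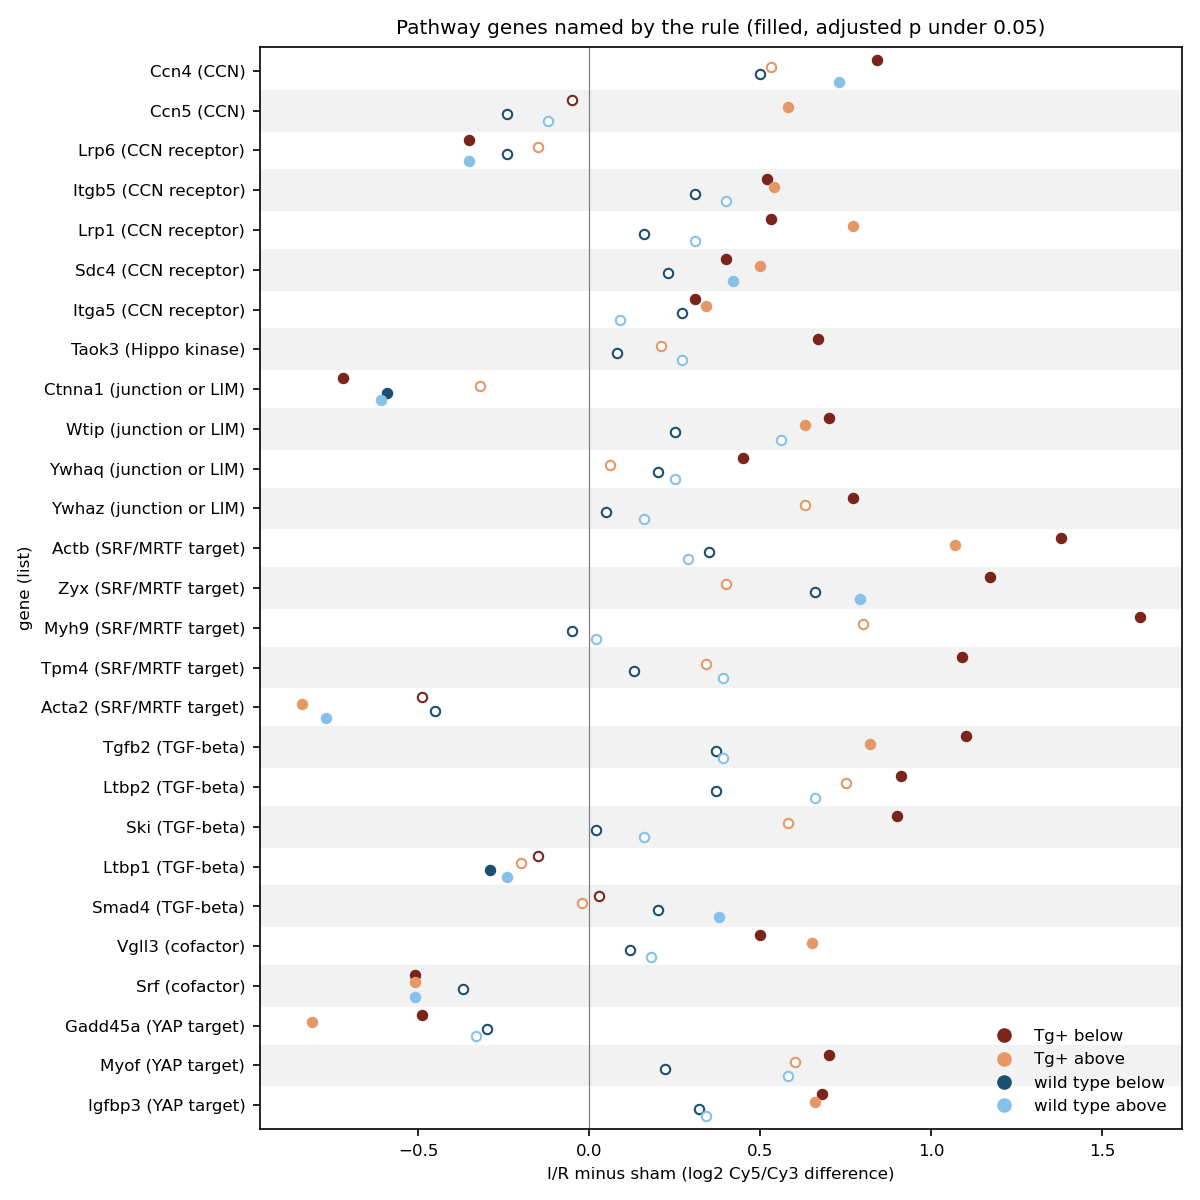
I/R minus sham difference in log2 ratio for the pathway genes named by the rule, other than Ccn2 and Wwtr1, with the list each belongs to. Colours are the 4 comparisons and filled points passed at adjusted p under 0.05. Myh9 at 1.61 and Actb at 1.38 are the largest increases shown in Tg+ below, and Acta2, Gadd45a and Ctnna1 lie left of 0 in every comparison.

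Of 20 tested genes of a YAP target signature, which include Ccn2, Ccn1 and Amotl2, 5 rose and 2 fell in Tg+ below, 3 rose and 3 fell in Tg+ above, 2 rose in wild type below and 1 rose in wild type above. Medians were 0.12, 0.23, 0.08 and 0.14. Ccn2 was among the genes that rose in each comparison and was the only one in wild type above, so these counts partly restate its result. Tgfb2, given with the TGF-beta genes below, is counted in both lists. Without the 5 weak arrays the counts were 2 higher and 0 lower, 7 higher and 3 lower, 2 higher and 1 lower, and 3 higher and 1 lower in that order. Igfbp3, an insulin-like growth factor binding protein, was 0.68 and 0.66 higher in Tg+ below and above (adjusted p = 0.0206 and 0.04). Myof, the membrane-repair protein myoferlin, was 0.70 ± 0.20 higher in Tg+ below (adjusted p = 0.0157). Gadd45a, a stress-response gene of the same signature, went the other way and fell by 0.49 in Tg+ below and by 0.81 in Tg+ above (adjusted p = 0.00777 and 0.000637).

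The other regulators that induce Ccn2 were set beside it. Of 14 tested TGF-beta ligands, receptors and early targets, 3 rose in Tg+ below, 2 in Tg+ above, none in wild type below and 1 in wild type above, and 1 fell in each wild-type comparison. Medians were 0.05, 0.31, 0.03 and 0.22. In the fit without weak arrays 0, 8, 0 and 1 rose and 0, 2, 1 and 0 fell. Tgfb2, the TGF-beta2 ligand, was 1.10 ± 0.22 higher in Tg+ below (adjusted p = 0.00185) and 0.82 ± 0.22 higher in Tg+ above (adjusted p = 0.02). Ltbp2, a latent TGF-beta binding family protein, and Ski, a repressor of SMAD signalling, were 0.91 and 0.90 higher in Tg+ below (adjusted p = 0.0125 and 0.0144). Ltbp1, which stores latent TGF-beta in the matrix, fell by 0.29 in wild type below and by 0.24 in wild type above (adjusted p = 0.0308 and 0.0428). Smad4, the shared partner of the receptor-activated SMADs, was 0.38 ± 0.12 higher in wild type above (adjusted p = 0.0361), with 0.03, -0.02 and 0.20 in Tg+ below, Tg+ above and wild type below.

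Of 12 tested cytoskeletal targets of SRF and MRTF, 7 rose in Tg+ below, 3 rose and 1 fell in Tg+ above, none passed in wild type below, and 2 rose and 1 fell in wild type above. The medians were 1.03, 0.49, 0.15 and 0.30. Without the weak arrays 2, 8, 0 and 6 rose and 1, 2, 0 and 1 fell, and the median in Tg+ below was 0.36. Myh9, non-muscle myosin heavy chain, was 1.61 ± 0.33 higher in Tg+ below (adjusted p = 0.00191). Actb, cytoplasmic beta-actin, was 1.38 ± 0.24 higher in Tg+ below (adjusted p = 0.000614) and 1.07 ± 0.24 higher in Tg+ above (adjusted p = 0.00714). Zyx, the focal adhesion protein zyxin, was 1.17 higher in Tg+ below and 0.79 higher in wild type above (adjusted p = 0.00111 and 0.0244), and the tropomyosin gene Tpm4 was 1.09 higher in Tg+ below (adjusted p = 0.00295). Acta2, smooth muscle alpha-actin, fell by 0.84 ± 0.19 in Tg+ above (adjusted p = 0.00826) and by 0.77 ± 0.19 in wild type above (adjusted p = 0.0136), and was at -0.49 and -0.45 below the tie.

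The features whose log ratio followed each member most closely over the 24 arrays are given as a description, since groups, hearts and signal strength are shared between arrays. Ccn2 ran most closely with Cd44 (the hyaluronan receptor, Pearson r = 0.949), Picalm (a clathrin adaptor, 0.945) and Slpi (a secreted protease inhibitor, 0.941). Without the 5 weak arrays these were 0.953, 0.933 and 0.947 over 19 arrays. Ccn1 ran most closely with Hbegf (heparin-binding EGF-like growth factor, 0.868), Tomm70a (a receptor of the mitochondrial outer membrane, 0.86) and Myo1c (an unconventional myosin, 0.844). The closest to Wwtr1 were Kdm5a (a histone demethylase, 0.917), Rtf1 (a subunit of the PAF1 transcription complex, 0.903) and AI509818 (0.902). Without the weak arrays the first of these kept 0.911, and the other 2 had 0.815 and 0.821. Yap1 ran most closely with Klf9 (a Kruppel-like factor, 0.878), and Amotl2 with Mapk1ip1 (0.709), the loosest first match of the 5. Among the members themselves, r was -0.43 between Ccn2 and Wwtr1, -0.61 between Ccn2 and Yap1, and 0.49 between Wwtr1 and Yap1.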

How the data were processed

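RNA of 24 heart pieces, 1 array each, was measured on two-colour Agilent arrays. Heart RNA was in Cy5 and the pup pool in Cy3 on every array, per the labels, with no dye swap; the labels' protocol instead mentions Cy3-CTP for the heart samples. Feature Extraction 9.5.3.1, per the file headers, gave the deposited intensity values (mean spot signal and background median, linear, not normalized) and Agilent's log10 ratio of red over green. The deposited series table holds log2 ratios that follow that ratio array by array (r at least 0.9865). Its centring is unknown.

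Intensities were corrected with normexp (offset 50) and normalized by loess within each array in limma 3.58.1 (R 4.3.3), giving no weight to control spots and flagged outliers. Duplicate spots were averaged. Of 41174 probes, 15344 passed the filter on dim probes (Cy5 well above background on every array of 1 or more groups). The brightest probe by mean Cy5 signal stood for a gene, giving 11377 features. No Cy5 spot was saturated, and no 2 arrays were identical. RefSeq names came by accession for 22951 probes and by older symbol for 3109. The 8455 unmatched probes kept the array's name. No source names the array's build. Promoter windows are RefSeq's.

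One limma fit of 8 group means (16 residual degrees of freedom) gave every comparison, with Benjamini-Hochberg adjustment over all features in each comparison and a threshold of 0.05. The pieces of a heart entered without a heart term. Values after ± are standard errors of the fit unless marked SD. The fit was tested on simulated data with independent normal noise on each array. Shared hearts, slide effects and weak arrays were not simulated, so that test does not cover them. The labels call the 3 samples of a group biological replicates. The number of arrays limits the precision. The members, gene lists, naming rule and alternatives were chosen with earlier results of these data known. The rule names all members with their probes, up to 5 genes of each pathway list with the smallest adjusted p in any I/R minus sham comparison if under 0.05, the 3 features most alike each member, and Trim63. A gene of the TGF-beta list is not reported here and was left out of that list's counts. For Yap1 and Amotl2 only the first of the 3 is printed. The use of the probes under an older name of Tead1 and the list counts without weak arrays were added after the data were seen. Alternatives were no background correction, median centring, Agilent's log ratio, the Cy5 channel alone, the series table, no filter, the mean of all probes, slide or replicate blocks, array weights, only the arrays of the comparison, no weak arrays, and each array left out in turn.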

Additional observations from a re-analysis of the deposited data

How the results depend on the processing

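Of 528 values of single members under an alternative, 440 kept direction and side of the threshold, 33 lost a call, 21 gained one and 34 changed sign. Ccn2 in Tg+ above the tie and Wwtr1 in wild type above kept their calls in all 12 alternatives and all 6 fits without 1 of their arrays. The number of members called (main 2 in Tg+ below) was 0 with slide as a block and 4 with array weights, and 2 to 4 with 1 array left out. In Tg+ above (main 1) it was 3 with array weights and 3 without the weak arrays, and 1 to 2 with 1 array left out. In wild type below (main 2) it was 0 with median centring, 0 with slide as a block and 0 with only the arrays of the comparison, 1 with Agilent's log ratio, 1 with Cy5 alone, 1 with the series table and 1 without the filter, and 0 to 2 with 1 array left out. In wild type above (main 2) it was 1 with median centring, 1 with slide as a block and 1 with only the arrays of the comparison, and 1 to 2 with 1 array left out. Over the 4 Tg+ minus wild type comparisons (main 1) it was 0 with median centring, Agilent's log ratio, Cy5 alone, the series table, only the arrays of the comparison and without the weak arrays, 5 with array weights, and 0 to 2 with 1 array left out. Over below minus above (main 0) it was 2 with array weights and 0 to 1 with 1 array left out, and over the interactions (main 0) 6 with array weights. With array weights many more features passed in all: 62.1% in Tg+ below and 45.8% in Tg+ above, up to 61.7% in Tg+ minus wild type, up to 38.5% in below minus above and up to 51.4% in the interactions, so the members' counts there stand beside high backgrounds. They gave Ccn2 in Tg+ minus wild type after I/R 2.06 below (adjusted p = 0.000244) and 2.51 above (adjusted p = 0.00047), where 61.7% and 19% of all features passed. Some losses came where few features passed in all. With slide as a block 2.16% passed in Tg+ below, 0.237% in wild type below and 2.27% in wild type above. In the main fit these shares were 32.6%, 5.64% and 13.4%. With median centring 0.176% passed in wild type below and 2.45% in wild type above. With only the arrays of the comparison these were 0% and 7.07%. A lost call there says little about the members. The cause of the changes under the alternatives was not tested. Median centring moved the median difference of all features to between -0.512 and -0.257, and Agilent's log ratio to between -0.239 and -0.074. Under median centring 0.609% to 20% of I/R minus sham calls were increases, against 38.2% to 47.2% with loess. With Agilent's log ratio the share was 50.8% in wild type below, against 38.2%.

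Signs changed only for values that had not passed. Amotl2 in Tg+ below was 0.03 with array weights and 0.04 without the weak arrays, and -0.06 to 0.06 with 1 array left out. In Tg+ above it was -0.10 with median centring. In wild type below it was -0.01 without background correction, -0.12 with median centring, -0.36 with Agilent's log ratio and -0.36 in the series table, and -0.04 to 0.08 with 1 array left out. In wild type above it was -0.07, -0.29, -0.14 and -0.14 with these, -0.05 with slide as a block, -0.11 with array weights, -0.02 without the weak arrays and -0.06 to 0.10 with 1 array left out. Ccn1 with median centring was -0.33 in Tg+ below, -0.01 in wild type below and -0.53 in wild type above, where it was also -0.08 with Agilent's log ratio, -0.08 in the series table, -0.25 with slide as a block, 0.00 with array weights -0.22 without the weak arrays and -0.10 to 0.28 with 1 array left out. Wwtr1 in Tg+ above was -0.65 with median centring, -0.10 as the mean of its probes, and -0.02 to 0.11 with 1 array left out. The above and below pieces of the same genotype, surgery and number, which the design takes from 1 heart although no label ties the numbers to hearts, had a median correlation of 0.27 in their deviations from group means (-0.73 to 0.54, 8 of 12 pairs over 0.1). Same-numbered samples of other groups, from other mice, had a median of -0.03 (-0.77 to 0.57, 16 of 72 pairs over 0.1), so the number was not taken to pair those. With heart as the replicate block, Wwtr1 in below minus above of Tg+ I/R hearts was -0.56 (adjusted p = 0.0656) and 0 members passed between pieces. The fit with the replicate block moved no count of members by over 1.5 times in any family of comparisons, and with it Yap1 passed in Tg+ below (-0.27, adjusted p = 0.0345). Dim probes (Yap1, Amotl2, Tead1) limit what small differences can be seen.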
